A study of Homo sapiens with 10 samples.

Results

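The cytosolic ribosomal protein genes are the genes for the proteins of the 40S and 60S ribosomal subunits. They were taken from the count table by name, as every RPL or RPS symbol with a number and at most a final A, X or L, together with RPLP0, RPLP1, RPLP2 and RPSA, and pseudogenes were left out. The rule gave 81 of the 58735 genes of the table, 32 for the small (40S) and 49 for the large (60S) subunit, which lie on 21 chromosomes. RPL10L had at most 1 count in any library and was not tested, so 80 members entered the comparisons, and 74 members had more than 1000 counts in every library. RNA-seq was done on A253, a human cell line from a salivary gland squamous cell carcinoma, in 3 groups with 2 libraries each. The control cells carried a guide RNA against dTomato, a sequence that the human genome lacks. The DUSP1-/+ cells were the clones Cl1 and Cl10, each grown from a single cell, in which a pair of guides in the flanking introns had removed exon 2 from some but not all copies of DUSP1 (heterozygous). The paper nevertheless reports that both clones lacked DUSP1 protein. It proposes that inactivating indels in the remaining alleles could be the reason. All groups were grown in DMEM with 10% FBS, and per the methods guide vectors were selected first and a Cas9 vector was introduced afterwards. RNA-seq of the deletion covered these 2 clones only. In these data an effect of the deletion and a property of the clone cannot be told apart in either of them.

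Ribosomal proteins assemble with ribosomal RNA into the subunits that read mRNA (40S) and join amino acids (60S), and most of them are needed in equal numbers. Their mRNAs are among the most abundant in growing cells. Most begin with a C followed by a run of pyrimidines, the 5′ terminal oligopyrimidine (TOP) motif, through which the mTOR pathway and the RNA-binding protein LARP1 control their translation and stability together. DUSP1 is a phosphatase that inactivates MAP kinases.

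The motif at the annotated transcription start is shown for members whose levels carry the results below, with the pyrimidine run in capitals. A TOP start was counted where the first transcribed base was C and at least the next 4 bases were each C or T, on the transcribed strand only. Each window has 15 bases before and 15 from the start, 5′ to 3′ on the strand of the gene, from RefSeq annotation on GRCh38.p14. The first 4 are the large-subunit genes that stayed lower in Cl10 at an adjusted p under 0.05 in every alternative fit tried. RPS6 has a start of the same kind, and RPS29, RPL3 and RPS27L have none at the annotated base.
RPL38: aacggaagtctcgttCTTTTTCgtcctttt
RPL41: cggaacttcgcctttCTCTCggccttagcg
RPL12: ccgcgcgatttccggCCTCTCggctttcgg
RPL39: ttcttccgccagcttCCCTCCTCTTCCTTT
RPS6: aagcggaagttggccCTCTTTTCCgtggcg
RPS29: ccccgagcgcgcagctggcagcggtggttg
RPL3: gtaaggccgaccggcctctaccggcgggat
RPS27L: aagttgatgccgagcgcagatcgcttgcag
The windows lie at chr17:74203663-74203692 (+) for RPL38, chr12:56116618-56116647 (+) for RPL41, chr9:127451392-127451421 (-) for RPL12 and chrX:119791616-119791645 (-) for RPL39. Those of RPS6, RPS29, RPL3 and RPS27L lie at chr9:19380222-19380251 (-), chr14:49598696-49598725 (-), chr22:39319609-39319638 (-) and chr15:63157463-63157492 (-). The run was 7 bases long in RPL38, 5 in RPL41, 6 in RPL12 and 9 in RPS6, while in RPL39 it filled all 15 bases of the window after the start. Of the 64 members with an entry, 46 (71.9%) had at least 1 TOP start, against 5.14% of the 27305 genes with an entry.

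The RNA of the targeted gene was checked first. DUSP1 had 12.94 and 11.04 normalised CPM in the control libraries, 5.28 and 6.15 in Cl1, and 8.60 and 7.21 in Cl10. Every clone library was below both control libraries. By edgeR's quasi-likelihood test the log2 fold change was -1.07 (adjusted p = 0.000292) for Cl1 and -0.59 (adjusted p = 0.0113) for Cl10. Here and below, normalised CPM is the count of a gene relative to a TMM-scaled library total, and the adjusted p is the Benjamini-Hochberg value over all genes tested in the comparison, with 0.05 as the threshold. Library totals ran from 47016495 to 70986593 counts. The 11 squamous and epithelial markers summed to between 15600 and 19900 normalised CPM in every library, but single markers differed. In the same test, 1 (9.09%) was higher and 4 (36.4%) lower in Cl10 than in the control, against 20.6% and 21.8% of all genes. In Cl10 against Cl1, 1 was higher and 9 (81.8%) lower, against 24.9% and 24.1% of all genes. The 8 salivary acinar markers summed to at most 0.166. Fibroblast markers summed to 44.8 to 50.7 in the control, 46.1 to 49.2 in Cl1 and 30.4 to 32.1 in Cl10, and endothelial markers to 4.41 and 2.73 in the control, 5.68 and 7.75 in Cl1, and 4.15 and 3.20 in Cl10. Leukocyte markers summed to 6.25 and 7.08 in the control, 14.3 and 10.9 in Cl1, and 10.1 and 8.94 in Cl10, so every clone library was above both controls, and the part of these markers in the results was not tested. The labels do not say whether replicates were separate cultures, so p-values measure the spread between these libraries, which may be technical.

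Ribosomal protein genes took a smaller share of the counts in Cl10 than in either other group. They held 5.77% and 7.10% of all counts in the control libraries, 5.41% and 5.18% in Cl1, and 4.76% and 4.48% in Cl10. Both Cl10 libraries were below all others, and both Cl1 libraries were below both controls, although the control libraries lay further apart than Cl1 from control replicate 1. The mean share was 6.43% ± 0.940 (SD, n = 2) in the control, 5.29% ± 0.164 in Cl1 and 4.62% ± 0.199 in Cl10, which is 0.823 of the control in Cl1 and 0.719 in Cl10. The exact two-sided permutation test gave p = 0.333 for each pair of groups, the smallest value that 2 against 2 libraries allow. Counts are relative to the rest of the library, and in bulk RNA a change in the mix of cells and a change of RNA per cell cannot be told apart.

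**Figure D1:**
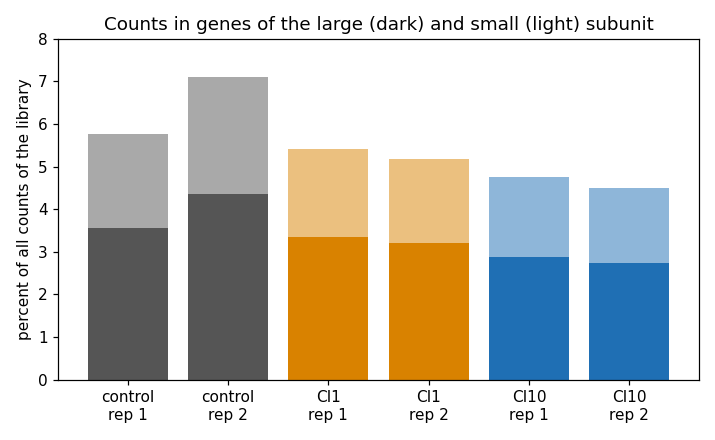
Bars give the percent of all counts of each library that fell in ribosomal protein genes, with the 49 large-subunit genes in the dark part and the 32 small-subunit genes in the light part. The total is 7.10% in control replicate 2, 5.77% in control replicate 1 and at most 4.76% in Cl10.

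The subunits kept nearly the same proportion to each other while the total differed. Counts in large-subunit genes were 1.61 and 1.58 times those in small-subunit genes in the control, 1.63 in both Cl1 libraries, and 1.55 and 1.57 in Cl10. The small-subunit share was 2.48% ± 0.386 in the control, 2.01% ± 0.0663 in Cl1 and 1.81% ± 0.0889 in Cl10 (SD, n = 2). The large-subunit share was 3.95% ± 0.554, 3.28% ± 0.0973 and 2.81% ± 0.110 in the same order. Mitochondrially encoded genes also took less of the Cl10 libraries, with 2.74% and 2.72% against 3.71% and 4.06% in the control and 4.14% and 4.12% in Cl1. With those genes left out of the total, the ribosomal protein share was still 0.710 of the control in Cl10.

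The control libraries differed from each other across the whole family. Control replicate 2 exceeded replicate 1 in 80 of 80 members, by a median of 0.33 on the log2 scale, whereas the median over all genes was 0.0. Within the clones the members moved less, with a median of -0.11 between the Cl1 libraries and -0.10 between the Cl10 libraries. Relative to the mean of the 6 libraries, the median member was at 0.06 in control replicate 1, at 0.40 in control replicate 2, at 0.07 and -0.04 in Cl1, and at -0.19 and -0.30 in Cl10. Control replicate 1 was thus level with the first Cl1 library, and each comparison with the control depends on which control library is used.

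**Figure D2:**
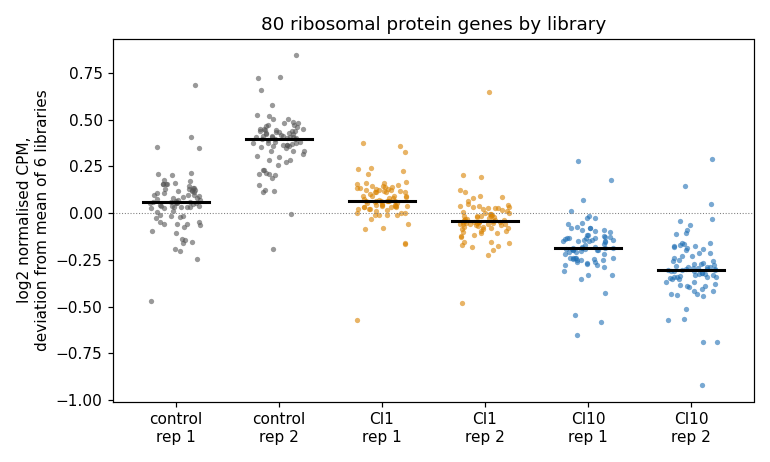
Each point is a ribosomal protein gene, plotted as its log2 normalised CPM in a library minus its mean over the 6 libraries, and black lines are medians over the 80 members. The medians of control replicate 1 and the first Cl1 library are nearly equal (0.06 and 0.07), and both Cl10 medians (-0.19 and -0.30) lie below all others.

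In Cl10, most members of both subunits were lower than in the control by a moderate amount. Of the 80 tested, 54 (67.5%) were lower at an adjusted p under 0.05, where 21.8% of all 19875 genes tested were lower, and 1 (1.25%) was higher, where 20.6% of all genes were. The median log2 fold change was -0.48, with quartiles of -0.57 and -0.37, beside a median of -0.01 over all genes, and 78 of 80 estimates were below 0. The groups did not overlap, with both Cl10 libraries lower, for 69 members (86.2%), against 37.6% of all genes, and with both higher for 1, against 36.2%. Only 2 members, RPL38 and RPL41, also passed an absolute log2 fold change of 1 (2.5%, against 7.44% of all genes), both lower, and none was higher by that much, against 5.98%. The median was -0.63 or -0.32 without control replicate 1 or 2, and -0.52 or -0.43 without Cl10 replicate 1 or 2. Fewer members passed when a Cl10 library was left out. Without Cl10 replicate 2 the share of members that were lower was below that of all genes in the same fit. With a library left out, its group is a lone library that is assumed to vary like the other group; without a Cl10 library, the spread is that of the controls. The 5 that passed with any library left out were RPL12, RPL38, RPL39, RPL39L and RPL41.

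**Figure D3:**
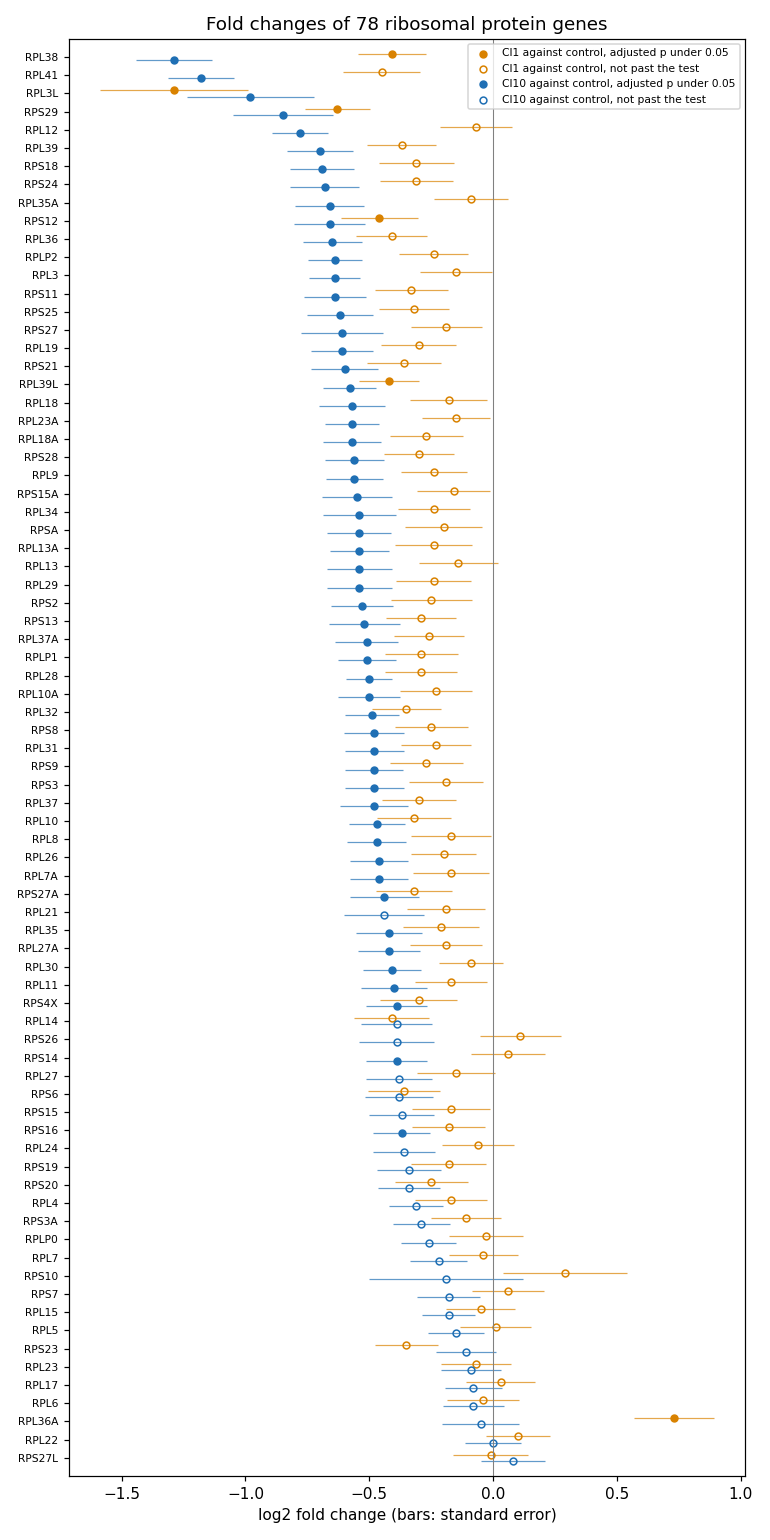
Log2 fold changes of 78 ribosomal protein genes against the control in Cl1 (orange) and Cl10 (blue), sorted by the Cl10 value, with standard errors as bars and filled points where the adjusted p was under 0.05. RPL38 (-1.29) and RPL41 (-1.18) lie at the Cl10 extreme, while in Cl1 all but 6 points are open.

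RPL38, a small 60S protein required for the translation of some Hox mRNAs in the mouse embryo, had the largest difference. Its normalised CPM was 237 and 296 in the control, 211 and 190 in Cl1, and 122.5 and 94.3 in Cl10, so every Cl10 library was below every Cl1 library and every Cl1 library below the control. The log2 fold change in Cl10 was -1.29 ± 0.154 (SE, adjusted p = 0.000849, edgeR's quasi-likelihood test), a level 2.45-fold lower. Of its canonical transcript, 59.0% overlaps the lncRNA MGC16275 on the opposite strand, which had at most 177 counts in a library, against at least 4537 for RPL38.

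RPL41, the shortest member with 25 residues, had 1243 and 1608 normalised CPM in the control, 1082 and 999 in Cl1, and 648 and 602.5 in Cl10. The groups again formed 3 steps without overlap, and the Cl10 level was 2.27-fold lower (log2 fold change -1.18 ± 0.133, adjusted p = 0.00069, edgeR's quasi-likelihood test). Genes near these members were lower as well. The median log2 difference of the 50 nearest tested genes was -0.57 around RPL38 on chromosome 17 and -0.55 around RPL41 on chromosome 12. After these medians were subtracted in every library, RPL38 was at -0.72 (adjusted p = 0.00831) and RPL41 at -0.65 (adjusted p = 0.00533) in the same test.

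RPL12, part of the base of the ribosomal stalk, differed in Cl10 alone. It had 1214 and 1449 normalised CPM in the control, 1292.5 and 1249 in Cl1, and 810.0 and 734 in Cl10. The Cl1 libraries lay between the controls and the Cl10 libraries below all others, with a log2 fold change of -0.78 ± 0.114 in Cl10 (adjusted p = 0.00192, edgeR's quasi-likelihood test), and the genes around it were at a median of 0. RPL39, a short protein of the peptide exit tunnel, had 379 and 483 in the control, 342 and 324 in Cl1, and 282 and 246 in Cl10, a log2 fold change of -0.70 ± 0.133 (adjusted p = 0.00563). Its 3 groups did not overlap.

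RPL35A, a 60S protein mutated in some families with Diamond-Blackfan anaemia, had 663 and 858 normalised CPM in the control, 736 and 688 in Cl1, and 513 and 445.5 in Cl10. The Cl1 libraries lay within the range of the controls and the Cl10 libraries below it, with a log2 fold change of -0.66 ± 0.139 in Cl10 (adjusted p = 0.00862, edgeR's quasi-likelihood test), which without Cl10 replicate 2 was -0.56 (adjusted p = 0.0827) and with the median of the 50 nearest genes subtracted -0.40 (adjusted p = 0.0677). RPL3, which lies near the peptidyl transferase centre, had 1595 and 1860 in the control, 1583 and 1518 in Cl1, and 1122.5 and 1082 in Cl10. Both Cl10 libraries were below all others, with a log2 fold change of -0.64 ± 0.104 (adjusted p = 0.00297), or -0.62 without Cl10 replicate 2 (adjusted p = 0.0658). The 50 genes nearest to RPL3 on chromosome 22 had a median of -0.79, and with that median subtracted RPL3 was at 0.14 (adjusted p = 0.413).

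Better known large-subunit proteins showed smaller values. RPL5 and RPL11, which bind MDM2 together with 5S rRNA when ribosome assembly fails, were at -0.15 (adjusted p = 0.318) and -0.40 (adjusted p = 0.0461) in Cl10 by edgeR's quasi-likelihood test. With the medians of the 50 nearest genes subtracted, RPL5 was at -0.48 (adjusted p = 0.0142) and RPL11 at -0.35 (adjusted p = 0.0755), so that RPL5 passed and RPL11 did not. RPL5 had 700 and 851 normalised CPM in the control, 808 and 752.5 in Cl1, and 722 and 668 in Cl10, so the groups overlapped. RPL11 had 551.5 and 704 in the control, 583 and 531.5 in Cl1, and 504 and 441 in Cl10, where the Cl10 libraries were the lowest, but without Cl10 replicate 2 the difference was -0.31 (adjusted p = 0.358). RPLP0, the scaffold of the stalk and a common reference gene for quantitative PCR, had 1211 and 1470 in the control, 1376 and 1244 in Cl1, and 1128 and 1109 in Cl10, with a log2 fold change of -0.26 (adjusted p = 0.106). RPL8 and RPL10, of the 60S core and its final maturation step, were lower in Cl10 at -0.47 each (adjusted p = 0.0181 and 0.0148), and without Cl10 replicate 1 or 2 each was at -0.49 or -0.45, no longer past the test.

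The acidic proteins that RPLP0 carries in the stalk, where translation factors bind, are RPLP1 and RPLP2, described here although chosen after their values were seen. RPLP2 had 418 and 494.5 normalised CPM in the control, 416 and 356 in Cl1, and 306 and 277 in Cl10, with a log2 fold change of -0.64 in Cl10 (adjusted p = 0.00373, edgeR's quasi-likelihood test). RPLP1 had 847 and 1035 in the control, 814 and 724.5 in Cl1, and 683 and 634 in Cl10, with -0.51 (adjusted p = 0.0118). In both genes the Cl10 libraries were the lowest, and neither is among the 5 members that passed with any library left out. The other 23 lower members of the large subunit, the acidic pair included, had log2 fold changes in Cl10 from -0.65 to -0.41 and mean levels from 54.3 to 2212 normalised CPM.

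In the small subunit, 20 of 32 members were lower in Cl10, with a median of -0.46, against 34 of 48 in the large subunit, with a median of -0.49. RPS29, a small zinc-binding protein, had 192 and 238 normalised CPM in the control, 142 and 134 in Cl1, and 145 and 93.2 in Cl10. All clone libraries were below the controls, the Cl10 libraries lay on both sides of Cl1, and the log2 fold change in Cl10 was -0.85 ± 0.202 (adjusted p = 0.0142, edgeR's quasi-likelihood test). Without Cl10 replicate 2 it was -0.57 (adjusted p = 0.052).

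RPS12 had 642 and 863 normalised CPM in the control, 573 and 519 in Cl1, and 496 and 452 in Cl10, a stepwise order without overlap, and was lower in Cl10 by -0.66 ± 0.144 (adjusted p = 0.00994, edgeR's quasi-likelihood test), or by -0.60 without Cl10 replicate 2 (adjusted p = 0.0664). RPSA, a 40S protein that is also known as the laminin receptor, had 797 and 1027 in the control, 847 and 737 in Cl1, and 642 and 606 in Cl10. Its Cl10 libraries were the lowest and its Cl1 libraries overlapped the controls, with -0.54 ± 0.129 in Cl10 (adjusted p = 0.0142; without Cl10 replicate 1 or 2, -0.58 or -0.50, not past the test). RPS2, a protein of the mRNA entry channel, was at -0.53 (adjusted p = 0.0132; without Cl10 replicate 1 or 2, -0.56 or -0.50, not past the test), and RPS27A, made as a fusion with ubiquitin, at -0.44 (adjusted p = 0.0411; without Cl10 replicate 1 or 2, -0.52 or -0.36, not past the test). After subtraction of its neighbour median, taken over the 50 nearest genes, RPS27A was at -0.20 (adjusted p = 0.265). The other 14 lower members of the small subunit ranged from -0.69 to -0.37, at mean levels from 172 to 1396 normalised CPM.

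RPS6, the 40S protein that S6 kinases phosphorylate downstream of mTOR and RSK downstream of ERK, had 661 and 842 normalised CPM in the control, 606 and 566 in Cl1, and 619 and 529 in Cl10. All clone libraries were below both controls and the clones overlapped, with log2 fold changes of -0.36 in Cl1 (adjusted p = 0.0961) and -0.38 in Cl10 (adjusted p = 0.0583) that did not pass edgeR's quasi-likelihood test. RPS15, a 40S protein needed for export of the subunit, had 1342 and 1733 in the control, 1437 and 1297 in Cl1, and 1206.5 and 1166.5 in Cl10, with -0.37 in Cl10 (adjusted p = 0.0561). Both passed in Cl10 with DESeq2 (adjusted p = 0.0186 for RPS6 and 0.0187 for RPS15) and with the medians of the 50 nearest genes subtracted, at -0.69 (adjusted p = 0.00844) and -0.52 (adjusted p = 0.0072), and RPS6 passed in Cl1 with DESeq2 (adjusted p = 0.0433).

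The 25 members that did not pass in Cl10 had log2 fold changes from -0.44 to 0.08. They include RPL5, RPL36A and RPLP0 of the large subunit and RPS6, RPS10, RPS15, RPS23 and RPS27L of the small subunit. RPS23, a protein of the decoding centre, had 385 and 443 normalised CPM in the control, 332 and 318 in Cl1, and 419 and 345 in Cl10. Its Cl10 libraries overlapped the controls (-0.11, adjusted p = 0.49, edgeR's quasi-likelihood test) and lay above those of Cl1.

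In Cl1, few members differed from the control. Lower in the test were 5 of 80 (6.25%), against 12.8% of all 20153 genes tested, and higher was 1 (1.25%), against 12.4% of all genes. The median was -0.20, with quartiles of -0.30 and -0.12, beside -0.01 over all genes, and 71 estimates were below 0. The groups did not overlap for 39 members with Cl1 lower (48.8%), against 33.0% of all genes, and for 2 with Cl1 higher, against 30.6%. Past an absolute log2 fold change of 1 as well, 1 member, RPL3L, was lower, against 3.27% of all genes, and none was higher, against 4.27%. The median was -0.37 or -0.03 without control replicate 1 or 2, and -0.27 or -0.14 without Cl1 replicate 1 or 2. Of these fits, only the one without control replicate 1 had a larger share of lower members than of lower genes overall. Subtracting a trend on length, GC content and abundance from each library gave 44 lower members, where 3163 of all 20153 genes were lower. Scaling by library size alone gave 16, where 3191 of all genes were lower.

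The 5 members lower in Cl1 were RPS29 (-0.63, adjusted p = 0.00396), RPS12 (-0.46, 0.048), RPL38 (-0.41, 0.0442), RPL39L (-0.42, 0.0239) and RPL3L (-1.29, 0.00744), by edgeR's quasi-likelihood test. All 5 were lower in Cl10 as well. Both comparisons use the same control libraries. Of the 5, RPL3L alone passed in Cl1 with any library left out, while RPS29 did not pass without Cl1 replicate 2 (adjusted p = 0.0625), and RPL38 and RPS12 passed in Cl1 only when control replicate 1 was the library left out. RPL39L passed without either control library, but not without Cl1 replicate 1 or 2 (adjusted p = 0.0702 and 0.282). With the medians of the 50 nearest genes subtracted, RPL38, RPS12 and RPL39L were at -0.42, -0.44 and -0.33, not past the test (adjusted p = 0.0564, 0.0573 and 0.0876), while RPS27, at -0.19 without the subtraction, passed at -0.43 (adjusted p = 0.0367). RPL41 was at -0.45 in Cl1 (adjusted p = 0.0505) and RPL39 at -0.37 (adjusted p = 0.0758), neither past the test, although both passed with DESeq2 (adjusted p = 0.0087 and 0.0355). RPL12, RPL35A and RPL3 were at -0.07, -0.09 and -0.15, with adjusted p-values of 0.784, 0.699 and 0.48.

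The clones were also compared with each other without use of the control libraries. Of 80 members, 55 (68.8%) were lower in Cl10 than in Cl1, against 24.1% of all 19818 genes tested, and 2 (2.5%) were higher, against 24.9% of all genes. The median was -0.24, with quartiles of -0.32 and -0.17, beside -0.0 over all genes, and the groups did not overlap for 68 members with Cl10 lower (85.0%), against 37.3% of all genes, and for 3 with Cl10 higher, against 37.4%. No member passed an absolute log2 fold change of 1 in either direction, against 6.28% of all genes lower and 4.47% higher. RPL38 was lower in Cl10 by -0.88 ± 0.0985, RPL41 by -0.73 ± 0.0686 and RPL12 by -0.72 ± 0.0685, with adjusted p-values of 1.23e-05, 2.86e-06 and 3.37e-06 in edgeR's quasi-likelihood test. RPL35A was at -0.57 (adjusted p = 4.8e-05), RPL3 at -0.49 (adjusted p = 4.75e-05) and RPS27 at -0.42 (adjusted p = 0.00458). RPS23 was higher in Cl10 than in Cl1 (0.24, adjusted p = 0.0303). With the medians of the 50 nearest genes subtracted, RPL38 and RPL41 were at -0.32 and -0.33, still past the test (adjusted p = 0.0168 and 0.00171), RPL3, RPS27 and RPS23 no longer passed (0.12, -0.21 and 0.13), and RPL5 and RPS6 did (-0.38 and -0.41). With the length, GC and abundance trend subtracted, the median was -0.11 beside 0.02 over all genes. With library size only it was -0.16 beside 0.07. Without Cl10 replicate 2 the median was -0.18, and the share of lower members was close to that of all genes in the same fit. In a fit over all 6 libraries, 18 members and 3899 of all 20582 genes were lower. The spread between the control libraries then enters the test.

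The name rule takes in paralogs with restricted or inducible expression. RPL39L, a form of RPL39 known from the testis and from some tumours, had 51.8 and 61.7 normalised CPM in the control, 45.0 and 39.5 in Cl1, and 39.4 and 36.4 in Cl10. All clone libraries were below the controls, with -0.42 ± 0.122 (adjusted p = 0.0239) in Cl1 and -0.58 ± 0.105 (adjusted p = 0.00492) in Cl10 by edgeR's quasi-likelihood test. The 50 genes nearest to RPL39L had a median of -0.34 in Cl10, and with it subtracted RPL39L was at -0.27 (adjusted p = 0.0548). Its parent gene RPL39 was in the same direction, as described above.

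RPL3L, the form of RPL3 known from heart and skeletal muscle, was near the detection limit with 1.10 and 1.23 normalised CPM in the control, 0.46 and 0.49 in Cl1, and 0.65 and 0.52 in Cl10, from 24 to 75 counts a library. The control libraries were above all clone libraries, with -1.29 ± 0.299 (adjusted p = 0.00744) in Cl1 and -0.98 ± 0.257 (adjusted p = 0.0202) in Cl10 by edgeR's quasi-likelihood test. The Cl10 value did not pass without Cl10 replicate 2 (adjusted p = 0.102) or with DESeq2 (adjusted p = 0.0923). RPL10L, the testis form of RPL10, had 0 counts in 4 of 6 libraries and 1 in the others.

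RPS27L, a form of RPS27 induced by p53, had 10.8 and 13.8 normalised CPM in the control, 11.1 and 13.2 in Cl1, and 13.0 and 12.8 in Cl10. The groups overlapped throughout, with -0.01 (adjusted p = 0.957) in Cl1 and 0.08 (adjusted p = 0.643) in Cl10 by edgeR's quasi-likelihood test. RPS27 had 434 and 551 in the control, 444.5 and 419 in Cl1, and 368 and 275 in Cl10, and its Cl10 libraries were below all others (-0.61 ± 0.165, adjusted p = 0.0224). Without Cl10 replicate 2 its value was -0.42 (adjusted p = 0.194).

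A few members had low counts and share their sequence with a readthrough gene in the annotation. RPL36A, a 60S protein and the member that was higher in Cl1, had 3.90 and 4.05 normalised CPM in the control, 5.93 and 7.25 in Cl1, and 4.22 and 3.43 in Cl10. Both Cl1 libraries were above all others, by 0.73 ± 0.163 against the control (adjusted p = 0.00626, edgeR's quasi-likelihood test; 0.0634 without Cl1 replicate 2), and Cl10 was lower than Cl1 by -0.77 (adjusted p = 0.000984). RPS10 had 1.03 and 1.25 in the control, 1.44 and 1.32 in Cl1, and 0.73 and 1.27 in Cl10, without a difference past the test. Of the canonical transcript, 43.8% in RPL36A and 84.0% in RPS10 is also part of another gene on the same strand, and those other genes had 0 counts in every library. How such reads were assigned is not given in the sources used here, so levels and differences of both genes are uncertain.

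Levels compared between genes per kilobase of the shortest complete coding transcript spanned a wide range. The highest means over the 6 libraries were 2883 normalised CPM per kilobase for RPS15, 2797 for RPS2 and 2790.0 for RPL8, a 60S core protein. RPL41 was at 2197 and RPL12 at 1774, while RPL38 was at 557 and RPS29 at 533. The lowest tested were RPL3L at 0.346, RPS10 at 1.997 and RPL36A at 6.94, the last 2 of these with the shared annotation described above. Annotated pseudogenes named after members took 4.06% to 4.29% as many counts as the members themselves in each library.

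Features that the name rule did not use were set beside the Cl10 values as descriptions. The 46 members with a TOP start had a median of -0.49, with 35 (76.1%) lower in the test. The 17 tested members with an entry but no TOP start had a median of -0.39, with 8 (47.1%) lower. For the 17 with no entry the median was -0.48, with 11 (64.7%) lower, and of all genes tested 21.8% were lower. The 783 other tested genes with a TOP start had a median of -0.07, beside -0.01 over all other genes. Across the 80 members, the Cl10 value and the log2 protein length had a Pearson correlation of 0.30 and a Spearman correlation of 0.27, with all points sharing the same libraries. The 27 members of at most 132 residues had a median of -0.56 and the 27 of at least 192 residues a median of -0.47. Other coding genes of the same lengths had medians of -0.12 and 0.02.

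**Figure D4:**
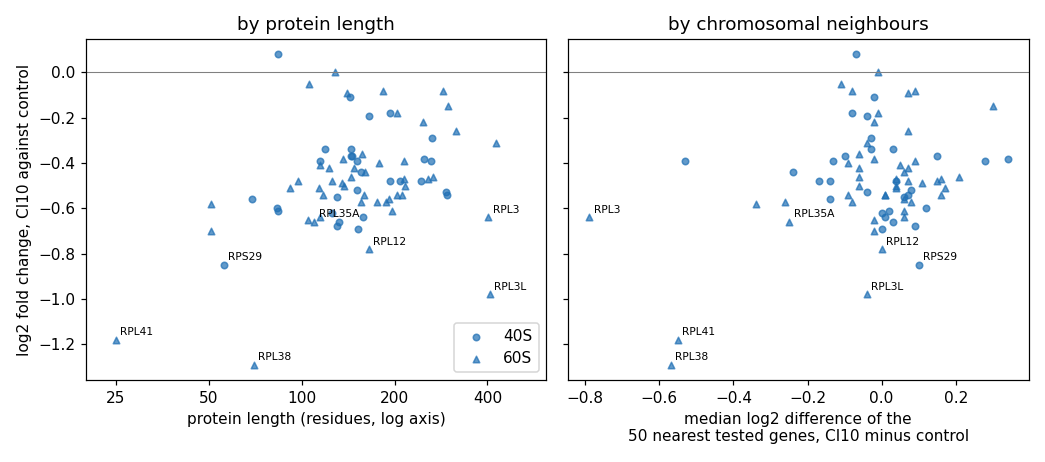
The log2 fold changes of 78 members in Cl10 against the control are plotted against protein length in residues on a log axis (left) and against the median log2 difference of the 50 nearest tested genes (right), with circles for 40S and triangles for 60S members. RPL41 and RPL38 are low and lie among lower neighbours (-0.55 and -0.57), whereas RPL12 is at -0.78 with neighbours at a median of 0.

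Few members lay among genes that were lower as a group. Neighbour medians in Cl10 were below -0.3 for 5 of 80 members, namely RPL3, RPL38, RPL39L, RPL41 and RPS26, the last of them named after its value was seen. The other 75 had a median of -0.48, and 50 of them were lower in the test. With neighbour medians subtracted, 51 members were lower in Cl10, of which 45 were among the 54.

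The other genes of the translation machinery were counted in the same fits. Of 90 ribosome biogenesis factors, which make and assemble the subunits, 5 (5.56%) were higher and 6 (6.67%) lower in Cl1 (median -0.03), below the 12.4% and 12.8% of all genes, and 19 (21.1%) were higher and 16 (17.8%) lower in Cl10 (median 0.09), near the 20.6% and 21.8% of all genes. UBTF, which activates transcription of ribosomal DNA, was higher in Cl10 (0.57, adjusted p = 0.00149), with 95.2 and 93.2 normalised CPM in the control, 105.1 and 90.5 in Cl1, and 142 and 137 in Cl10. NMD3, the export adaptor of the 60S subunit, was lower (-0.92, adjusted p = 0.000227), with 121 and 120.0 in the control, 98.0 and 99.5 in Cl1, and 63.2 and 63.4 in Cl10, by edgeR's quasi-likelihood test. The groups did not overlap between Cl10 and the control for either gene.

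Of 30 tested genes with a known TOP motif outside the name rule, mostly translation factors, 1 was higher and 4 (13.3%) lower in Cl1 (median -0.12), near the 12.8% of all genes that were lower. In Cl10, 1 was higher and 12 of the 30 lower (median -0.26), against 21.8% of all genes lower. RACK1, which sits on the 40S subunit, was lower in Cl1 (-0.58, adjusted p = 0.0121, edgeR's quasi-likelihood test), with 1398 and 1678 normalised CPM in the control, 1057 and 992 in Cl1, and 1308 and 1245 in Cl10. The list also holds VIM, an intermediate filament gene, at -5.12 (adjusted p = 3.39e-09) in Cl1 and -5.45 (adjusted p = 8.05e-06) in Cl10, and LGALS1, a galectin gene, at -1.48 in Cl10 (adjusted p = 0.00021), which are not part of the ribosome. HNRNPA0, an RNA-binding protein gene, was higher in both clones (0.42 and 0.43, adjusted p = 0.0319 and 0.00914).

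Of 23 tested hosts of small nucleolar RNAs, 1 (4.35%) was higher and 9 (39.1%) lower in Cl1 (median -0.27), against 12.4% and 12.8% of all genes. In Cl10, 2 (8.7%) were higher and 10 (43.5%) lower (median -0.30), against 20.6% and 21.8%. GAS5, a noncoding TOP transcript, had 127 and 165 normalised CPM in the control, 93.0 and 95.3 in Cl1, and 61.1 and 56.6 in Cl10, where it was lower by -1.31 (adjusted p = 0.000422, edgeR's quasi-likelihood test). SNHG5, another host, was lower in both clones (-0.96 and -1.01, adjusted p = 0.000131 and 0.000418), and DANCR was higher in Cl10 (1.5, adjusted p = 0.000256). Of 78 mitochondrial ribosomal protein genes, 2 (2.56%) were higher and 9 (11.5%) lower in Cl1 (median -0.12), against 12.4% and 12.8% of all genes. In Cl10, 7 (8.97%) were higher and 25 (32.1%) lower (median -0.13), against 20.6% and 21.8%. MRPL18 was lower in both clones (-0.56 and -0.91, adjusted p = 0.0113 and 0.00225) and MRPS35 higher in both (0.49 and 0.75, adjusted p = 0.00655 and 0.000885).

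The name rule leaves out some genes of ribosomal proteins and their paralogs. FAU, which encodes a 40S protein fused to a ubiquitin-like protein, was at -0.11 in Cl10 (adjusted p = 0.526, edgeR's quasi-likelihood test). RPL22L1, the paralog of RPL22, was lower in both clones (-0.92 and -0.93, adjusted p = 0.000379 and 0.00123), RPL26L1 in Cl1 (-0.65, adjusted p = 0.00246) and RPL36AL in Cl10 (-0.54, adjusted p = 0.00863), while RPL7L1 was at 0.26 and 0.16 without passing in either clone.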

How the data were processed

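RNA-seq libraries of A253 cells were analysed for the control, Cl1 and Cl10 (2 libraries each), and the 4 samples of a SOX2 experiment were not analysed here. The authors used HISAT2 (hg38) for alignment and HTSeq for quantification, and deposited raw, unnormalised read counts per gene. The submitters' notes also name StringTie and DESeq. The labels name a stranded mRNA kit and the methods a TruSeq poly(A) kit. The annotation, the strand setting and the treatment of reads matching several genes are not given in the sources used here, so overlapping, antisense and near-identical genes are uncertain. Of the identifiers, 58207 matched GENCODE v44, with 99.9% of the counts. RefSeq windows came from GRCh38.p14.

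Each pair of groups was fitted over all genes with edgeR 4.0.16 in R 4.3.3 (filterByExpr, TMM, glmQLFit, glmQLFTest, Benjamini-Hochberg adjustment). The procedure was also run on simulated counts, with changes larger than those of any member and no shift shared across genes between replicates. That run does not tell how well changes of the size seen here are called. The study itself used DESeq2, which was run here as an alternative (version 1.42.0). Library totals ran from 47016495 to 70986593 counts, and counting error weighs most in members under 100 counts. Replicates differed by more than counting error alone, which treats reads as independent molecules: 58.5%, 47.3% and 23.6% of genes with at least 100 counts differed between the libraries of control, Cl1 and Cl10 at an unadjusted chi-square p under 0.05.

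A few genes count in the totals but are not reported here by name. Members, gene lists and tests were chosen with earlier results of these data known. Named were members past the test and an absolute log2 fold change of 1, the 5 largest per direction and comparison among members past the test with a mean of at least 5 CPM, paralogs and their parents, the 3 highest and 3 lowest per kilobase, members with well known roles, and the 2 largest per direction, list and clone. From the last group, those not described above were DDX47 (1.51), NOP2 (1.03), NHP2 (-0.68), TAF1A (-0.57), SNHG4 (0.56), SNHG19 (-0.85), MRPL49 (0.38) and MRPL10 (-0.55) in Cl1, and GNL3L (0.59), NOP14 (-0.74), SNHG1 (0.51), MRPS24 (2.10) and MRPL58 (-0.88) in Cl10, as log2 fold changes past the test. Other alternatives were other normalizations and count filters, a replicate block, a joint fit, trend or neighbour subtraction and leaving out each library.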

Additional observations from a re-analysis of the deposited data

Results flagged for a closer look

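The clones differed from each other in 16 of the members named by the rules given above, by edgeR's quasi-likelihood test of Cl10 against Cl1, that is, of the difference between the effects of the clones. Some were named for their size in this same comparison, so the number 16 does not measure how often members differ. Of all 80 members, 55 (68.8%) were lower and 2 (2.5%) higher in Cl10, against 24.1% and 24.9% of all genes. RPLP1 (-0.22), RPLP2 (-0.40) and RPS26 (-0.49), named after their values were seen, were also lower in Cl10 and past the test. Groups of 2 libraries were too small for a check on single outlying libraries.

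Among large-subunit members, the log2 difference of Cl10 from Cl1 was -0.88 for RPL38, -0.77 for RPL36A, -0.73 for RPL41, -0.72 for RPL12, -0.57 for RPL35A, -0.49 for RPL3, -0.33 for RPL39, -0.31 for RPL8, -0.23 for RPL11 and -0.22 for RPLP0. Among small-subunit members it was -0.42 for RPS27, -0.34 for RPSA, -0.28 for RPS2, -0.20 for RPS12 and -0.20 for RPS15, and RPS23 was higher, at 0.24. Of these, RPL12, RPL3, RPL35A, RPL36A, RPL38 and RPL41 passed with any library left out, and each of the others lost its call without Cl10 replicate 1, without Cl10 replicate 2 or without either. In those fits Cl10 is a lone library assumed to vary like Cl1, and several values stayed close, such as -0.32 and -0.28 for RPL8, -0.31 and -0.25 for RPS2, -0.23 and -0.21 for RPLP0 and -0.38 and -0.30 for RPSA. With the medians of the chromosomal neighbours subtracted, RPL3 (0.12, adjusted p = 0.149), RPL11 (-0.07, 0.514), RPS27 (-0.21, 0.101) and RPS23 (0.13, 0.258) did not pass, and RPS27 did not pass with DESeq2 (adjusted p = 0.12).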

How the results depend on the processing

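Ribosomal protein genes lower in Cl1 numbered 5, and 12 with DESeq2, 44 with the length, GC and abundance trend subtracted, 16 with library size only, 14 without a count filter, 11 in the joint fit, 1 with the fold threshold and 1 to 53 with a library left out. Those higher numbered 1, then 0 with the fold threshold and 0 to 3 with a library left out, and the median was -0.37 to -0.03. In Cl10, 54 lower became 2 with the fold threshold and 5 to 75 with a library left out. The 1 higher became 0 and 0 to 4, and the median was -0.63 to -0.32. For Cl10 against Cl1, 55 lower became 33 with the trend subtracted, 18 in the joint fit, 0 with the fold threshold and 15 to 71 with a library left out. The 2 higher became 1 with neighbour medians subtracted, 0 in the joint fit, 0 with the fold threshold and 1 to 3 with a library left out. The median for Cl10 against Cl1 was -0.31 to -0.11, with -0.11 when the trend was subtracted. The joint fit and the fold threshold act by their construction, and for the rest the cause was not tested.

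Replicate numbers did not pair the samples (correlations of deviations between -0.09 and 0.022). With the replicate block, lower members numbered 3 in Cl1, 59 in Cl10 and 60 for Cl10 against Cl1, higher TOP genes 0 and higher mitochondrial ribosomal protein genes 1 in Cl1. Library size only split all calls in Cl1 into 1942 higher and 3191 lower (2489 and 2575 with TMM). It gave 2 higher and 13 lower biogenesis factors, 7 lower TOP genes, and 1 higher and 14 lower mitochondrial ribosomal protein genes. The Cl1 share was 5.52% without mitochondrially encoded genes and 5.51% with pseudogenes, and the Cl10 share 4.82% with pseudogenes. With a library left out, shares were 5.77% to 7.10% (control), 5.18% to 5.41% (Cl1) and 4.48% to 4.76% (Cl10).

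Of 1050 values for named members, 35 changed sign, none of them past the test. In Cl1 these were RPL5 (-0.05 with the trend, -0.06 with library size only, -0.05 with neighbours, -0.01 without a filter) and RPS27L (0.14 with the trend, 0.09 with neighbours). In Cl10 they were RPL3 (0.14 with neighbours) and RPL36A (0.16 with the trend, 0.03 with neighbours). For Cl10 against Cl1 the trend turned RPL10 (0.01), RPS15 (0.05), RPS2 (0.01), RPS27A (0.01) and RPS6 (0.09), library size only RPS6 (0.05), and neighbours RPL3 (0.12) and RPL39L (0.11). With a library left out, the ranges that held both signs in Cl1 were RPL11 -0.34 to 0.02, RPL12 -0.19 to 0.07, RPL35A -0.27 to 0.11, RPL5 -0.13 to 0.16, RPLP0 -0.17 to 0.12, RPS15 -0.34 to 0.03 and RPS27L -0.18 to 0.17. In Cl10 they were RPL36A -0.20 to 0.09, RPS10 -0.62 to 0.17, RPS23 -0.25 to 0.02 and RPS27L -0.09 to 0.26, and for Cl10 against Cl1 RPS27L -0.03 to 0.22, RPS29 -0.56 to 0.07 and RPS6 -0.14 to 0.09. Calls were lost in 76 and gained in 76 of the values. Depth limited RPL3L, RPS10 and RPL10L.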
